A study of Mus musculus with 4 samples.

Results

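The Ifi200 family and AIM2 are interferon-inducible genes that lie side by side on mouse chromosome 1, and 10 of them were described here: IFI203, IFI204, IFI205, IFI206, IFI207, IFI209, IFI211, IFI213, MNDAL and AIM2. They were selected by symbol, and the selection was made with the ratios between genotypes in these same groups already known, so the ratios below chose the members and are a description without a test. All 10 had a value in every group, among 14718 genes that were listed at 1 or both time points. At 7 days post injury (dpi) 14125 genes were listed, and 11472 were listed at 21 dpi.

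RNA was measured in about 4 mm of spinal cord around a contusion of 50 kdyne, in male ApoE3 and ApoE4 targeted replacement mice, which carry human sequence coding for the named isoform in place of their own ApoE gene. The mice were 3 to 5 months old at surgery, by the study's methods, and the cord was taken at 7 or 21 dpi. The 4 groups were ApoE3 at 7 dpi, ApoE4 at 7 dpi, ApoE3 at 21 dpi and ApoE4 at 21 dpi, with 3 mice per group by the methods and 1 deposited value per gene and group. Every group was injured, and no uninjured cord was analysed here. Levels are given as FPKM, fragments scaled to transcript length and to the fragments sequenced, and a ratio is the log2 of FPKM plus 1 in ApoE3 over FPKM plus 1 in ApoE4, so that a positive ratio means higher in ApoE3. With 1 value per group, none of the differences below has a replicate check, and a fold of at least 1.3 on this scale (0.38 in log2) served as the threshold. Each row of the deposited table names its comparison as ApoE3 versus ApoE4, and the values were read in that order. The numbering of its sample columns is the other way round, and under that numbering every direction between genotypes below would be the opposite. The paper describes more differing genes higher in ApoE4 than in ApoE3 at the later time point. In the order used here, 6753 listed genes were past the fold toward ApoE4 at 21 dpi, and 231 toward ApoE3. These counts rest on the fold alone, whereas the paper also set a limit on the false discovery rate. After the median ratio of genes averaging 1 FPKM or more was subtracted, they were 925 and 856. Under the numbering these counts would change places. The order itself was not tested.

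As background, these genes encode proteins with a pyrin domain, a HIN domain that binds double-stranded DNA, or both, and most are induced by interferon in macrophages and other cells. AIM2 detects DNA in the cytosol and, through the adaptor PYCARD, assembles an inflammasome that activates caspase-1. IFI204 is a DNA sensor of the nucleus and cytosol that acts through STING, and mouse strains differ in which copies of the family they carry.

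In RefSeq's mouse genes the 10 members fall in a run of 13 neighbouring protein-coding genes on chromosome 1, in the order AIM2, IFI206, IFI214, IFI213, IFI209, IFI208, IFI207, IFI204, MNDAL, IFI211, IFI203, IFI202B and IFI205. The other 3 genes of the run, IFI214, IFI208 and IFI202B, were searched too and had no value at either time point in the values used here, and neither had MNDA, PYDC3, PYDC4, PYHIN1 or IFI212, names that have also been used for genes of this run. The 3 protein-coding genes before the run are MPTX2, ACKR1 and CADM3, and the 3 after it are OLFR433, OLFR432 and OLFR430; of these 6, only ACKR1 and CADM3 had values. The annotated span of AIM2 overlaps that of CADM3, a cell adhesion gene.

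The Ifi200 members are close copies of each other, and a read of 100 nt can fit more than 1 of them. Of the 1686 distinct windows of 100 nt in the GENCODE transcript of IFI211, 959 (56.9%) were also present, letter for letter and on either strand, in transcripts of another gene. IFI205 held 628 of these windows, IFI204 held 331 and MNDAL held 108. IFI211 thus had the largest shared part of the 10 members.

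IFI209 shared 598 of its 3544 windows (16.9%), all of them with IFI214, and IFI205 shared 628 of 4175 (15.04%), all of them with IFI211 and 108 of them with MNDAL too. IFI206 shared 388 of 2957 (13.1%), mostly with IFI208 and with the pseudogene GM18752, and IFI204 shared 370 of 3462 (10.7%). MNDAL shared 247 of 3869 windows (6.38%). In IFI213, IFI203 and IFI207 the shared part was small, at 3.30%, 2.84% and 0.790% of windows.

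AIM2 shared none of its 3452 windows with any annotated transcript of another gene, CADM3 included. Which annotation the deposited values rest on, and how reads that fit several genes were counted, is not given in the sources used here, so the value of every member is uncertain: that of AIM2 through the overlap with CADM3, and those of the others through their shared windows. For this reason the family is also given as a sum.

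**Figure D1:**
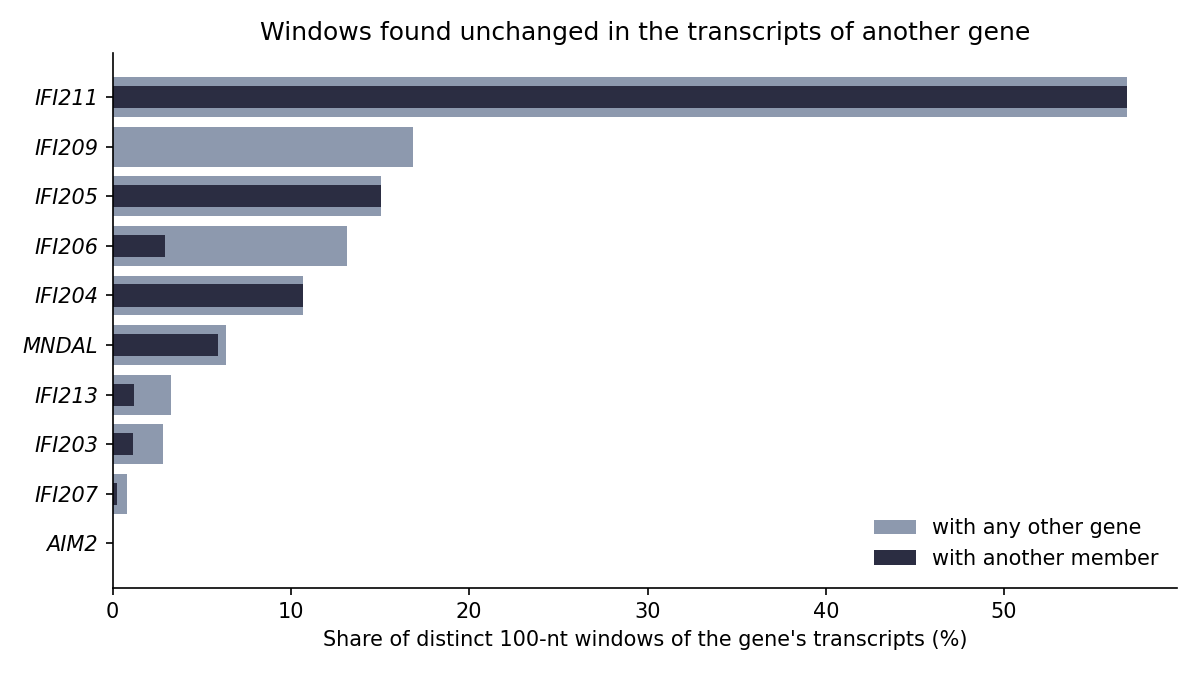
Share of the distinct 100-nt windows of each member's GENCODE transcripts that is also found in a transcript of another gene (light bars) or of another member (dark bars), in percent. IFI211 shared 56.9% of its windows and AIM2 shared none.

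The start regions of the members were searched for letters of known interferon-responsive elements, because members that share such letters can be shown side by side. RefSeq's table of promoters (GRCm38.p6, 250 bases before to 50 bases after a start) held 11 promoters for 9 of the 10 members, and IFI204 is the member without an entry. GAAANNGAA, the core of the interferon-stimulated response element, was present on either strand in 8 of these 11 promoters and in 7 of the 9 members, against 8.56% of the 32851 mouse promoters of the same length. TTCNNNGAA, the letters of a gamma-activated site, was present in none of the 11, against 8.30% of all promoters. TATAAA was present in 4 of the 9 members, IFI205, IFI206, IFI209 and IFI213, against 13.6% of all promoters. No match of a motif overlapped another match in these promoters.

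The matches of GAAANNGAA on the strand of the gene are printed with 25 bases on either side, 5′ to 3′, in lower case with the 9 matching letters in capitals. The stretches lie at chr1:173599312-173599370 for IFI213, chr1:173491325-173491383 for IFI206, chr1:173741817-173741875 for IFI207, chr1:173880190-173880248 for MNDAL, chr1:173942494-173942552 for IFI203, chr1:173913050-173913108 for IFI211 and chr1:174031856-174031914 for IFI205, all on the minus strand of GRCm38.p6. The stretch of IFI209, at chr1:173630755-173630813 on the plus strand, is the one of its promoter that differs least from that of IFI213, and it holds no match.
IFI213: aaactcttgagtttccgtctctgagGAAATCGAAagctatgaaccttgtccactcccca
IFI206: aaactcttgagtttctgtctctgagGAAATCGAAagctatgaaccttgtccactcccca
IFI207: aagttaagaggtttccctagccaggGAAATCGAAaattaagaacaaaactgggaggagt
MNDAL: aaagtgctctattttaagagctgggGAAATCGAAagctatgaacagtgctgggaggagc
IFI203: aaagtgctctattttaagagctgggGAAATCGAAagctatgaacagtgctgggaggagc
IFI211: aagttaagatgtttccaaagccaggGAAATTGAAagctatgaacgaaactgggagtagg
IFI205: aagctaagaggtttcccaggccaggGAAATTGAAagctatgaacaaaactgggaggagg
IFI209: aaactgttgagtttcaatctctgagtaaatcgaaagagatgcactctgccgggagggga

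Some of the stretches were close copies. Those of IFI203 and MNDAL were identical in all 59 bases, those of IFI206 and IFI213 were identical in 58, and those of IFI205 and IFI211 in 53, while that of IFI207 was identical to IFI205 in 51 and to IFI211 in 49. Across all 28 pairs of these 8 stretches, the share of identical bases ran from 45.8% to 100%. The letters GAAATCGAA stood 73 bases before the start in IFI213, 40 in IFI206, 41 in IFI207, 36 in MNDAL and 35 in IFI203, while GAAATTGAA stood 37 bases before the start in IFI211 and 134 in IFI205. For IFI203 only 1 of 2 listed promoters held the match, the other promoter of MNDAL held TTCTCTTTC, the motif on the opposite strand, and the promoter of IFI205 also held TTCACTTTC, on the opposite strand 25 bases after the start.

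The promoter of AIM2, at chr1:173420354-173420653 on the plus strand, held none of the 3 motifs and is shown whole.
AIM2: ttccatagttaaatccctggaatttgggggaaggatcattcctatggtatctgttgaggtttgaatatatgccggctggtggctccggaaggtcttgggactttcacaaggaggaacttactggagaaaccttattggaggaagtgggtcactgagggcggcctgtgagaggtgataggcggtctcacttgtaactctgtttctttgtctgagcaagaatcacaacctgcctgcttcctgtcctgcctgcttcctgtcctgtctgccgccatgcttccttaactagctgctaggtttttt

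A match of letters is a description, and whether any factor bound there was not tested. Nor was any link between the matches and the ratios between genotypes.

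At 7 dpi, 9 of the 10 members were higher in ApoE3 than in ApoE4, and 8 of the 10 were past the fold of 1.3, against 3.78% of all listed genes in that direction. No member was past the fold toward ApoE4, against 4.76% of all listed genes. The median ratio of the members was 0.71, and that of all genes averaging 1 FPKM or more was 0.0018. Since these ratios chose the members, nothing is read from the counts. In bulk cord, fewer cells of a type and less RNA per cell cannot be told apart, here and in every comparison below.

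At 7 dpi IFI206 had 7.12 FPKM in ApoE3 and 2.46 in ApoE4, a ratio of 1.23. Only 21 of the 14125 genes listed at that time point had a higher ratio. IFI213, with the near-identical promoter stretch, had 43.4 FPKM in ApoE3 and 20.08 in ApoE4, a ratio of 1.08. These were the members past a fold of 2, against 0.34% of all listed genes in that direction.

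At 7 dpi IFI211 had 30.3 FPKM in ApoE3 and 16.2 in ApoE4, a ratio of 0.87. Its sequence neighbour IFI205, known for its part in controlling PYCARD in macrophages, had 4.18 and 2.08 FPKM, a ratio of 0.75. The DNA sensor IFI204 had 35.7 FPKM in ApoE3 and 21.04 in ApoE4, a ratio of 0.74. IFI211 shares windows of 100 nt with IFI205 and with IFI204, and all 3 were higher in ApoE3.

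At 7 dpi IFI203 stood at 93.9 FPKM in ApoE3 and 58.2 in ApoE4, a ratio of 0.68. MNDAL, whose promoter stretch is the same, had 95.1 and 68.4 FPKM, a ratio of 0.47. IFI209 had 3.47 and 1.93 FPKM, a ratio of 0.61. MNDAL and IFI209 were the members nearest to the threshold on its inner side, at 1.38-fold and 1.52-fold.

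At 7 dpi IFI207 had 96.7 FPKM in ApoE3 and 76.5 in ApoE4, a ratio of 0.34 or 1.26-fold, just short of the threshold. AIM2 had 239.7 FPKM in ApoE3 and 261 in ApoE4, a ratio of -0.12, and was the only member lower in ApoE3. The members thus differed among themselves by level as well as by ratio. AIM2, IFI207, MNDAL and IFI203 led in both genotypes, in that order, and IFI206, IFI205 and IFI209 had the lowest levels in both; with 1 value per group, whether neighbours in this order differ cannot be said.

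**Figure D2:**
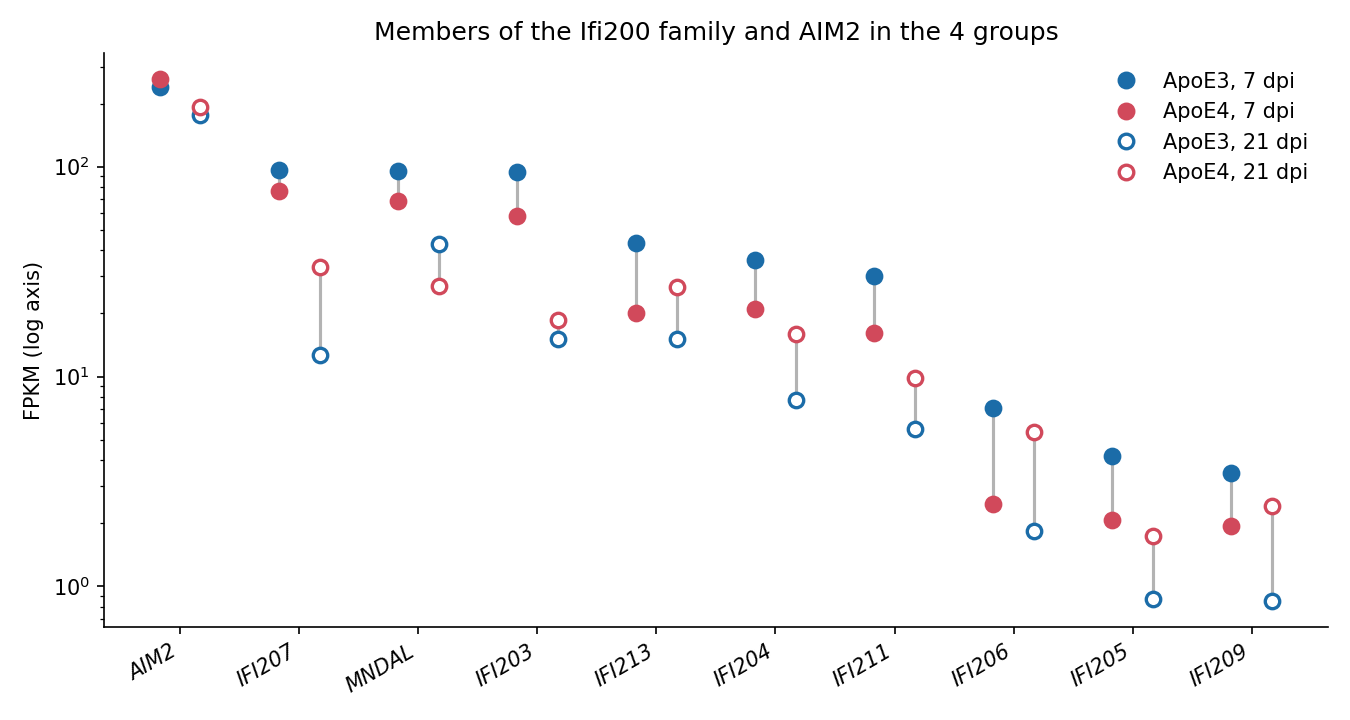
FPKM of each member in the 4 groups on a log axis, with blue for ApoE3, red for ApoE4, filled points for 7 dpi and open points for 21 dpi; each point is the 1 deposited value of a group. At 7 dpi the ApoE3 point is the upper one for every member except AIM2, and at 21 dpi, before any centring, it is the lower one for every member except MNDAL.

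At 21 dpi the order of the genotypes was the opposite for most members, on a scale on which most genes of the table also leaned toward ApoE4. The summed FPKM of all listed genes was 1669387 in ApoE3 and 1669584 in ApoE4 at 7 dpi, but 1513867 in ApoE3 and 2050622 in ApoE4 at 21 dpi. At 21 dpi the genes averaging 1 FPKM or more had a median ratio of -0.42, and 93.8% of listed genes were lower in ApoE3. Ratios at 21 dpi are therefore given as deposited and also centred, which means after this median was subtracted.

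As deposited, 7 of the 10 members were past the fold toward ApoE4 at 21 dpi, against 58.9% of all listed genes, and 1 of the 10, MNDAL, was past it toward ApoE3, against 2.01%. The 7 of 10 is near the share of all genes. After centring, 4 of the 10 (IFI204, IFI206, IFI207 and IFI209) were past the fold toward ApoE4, against 8.06% of all listed genes, and MNDAL toward ApoE3, against 7.46%. Of all listed genes, 6753 were past the fold toward ApoE4 and 231 toward ApoE3 as deposited, and 925 and 856 after centring. The median ratio of the members was -0.75 as deposited and -0.33 centred. Past the fold toward ApoE3 at 7 dpi and toward ApoE4 at 21 dpi were 6 of the 10 members as deposited, against 2.45% of the 10879 genes listed at both time points, and 3 of the 10 (IFI204, IFI206 and IFI209) after centring, against 0.846%; these ratios too chose the members, and nothing is read from the counts.

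At 21 dpi IFI207 had 12.7 FPKM in ApoE3 and 33.3 in ApoE4, a ratio of -1.32 and, centred, -0.90. IFI206 had 1.83 and 5.47 FPKM, a ratio of -1.19 and, centred, -0.77. IFI204 had 7.74 and 15.96 FPKM, a ratio of -0.96 and, centred, -0.53. These members and IFI209, with 0.853 and 2.42 FPKM (-0.88, centred -0.46), were lower in ApoE3 by more than the table's own lean. IFI206 and IFI207 were past a fold of 2 toward ApoE4 as deposited, against 3.77% of all listed genes, and no member was past it toward ApoE3, against 0.741%. After centring neither IFI206 nor IFI207 was past a fold of 2, and MNDAL was past it toward ApoE3, at 1.07.

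At 21 dpi IFI213 had 15.04 FPKM in ApoE3 and 26.6 in ApoE4, a ratio of -0.78. IFI211 had 5.60 and 9.86 FPKM, a ratio of -0.72, and IFI205 had 0.868 and 1.73 FPKM, a ratio of -0.55. These 3 were past the fold toward ApoE4 as deposited, but not after centring, when their ratios were -0.36, -0.30 and -0.12. IFI205 was also the member nearest to the threshold among those past it as deposited, at 1.46-fold; this place rests on the pseudocount of 1 FPKM, since its ratio was -0.92 with 0.1 FPKM, and that of IFI209 was then -1.40.

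At 21 dpi IFI203 stood at 15.1 FPKM in ApoE3 and 18.6 in ApoE4, a ratio of -0.29 that centring turned to 0.13. AIM2 had 175.5 FPKM in ApoE3 and 192 in ApoE4, a ratio of -0.13 that centring turned to 0.29. For both, short of the threshold at 1.22-fold and 1.10-fold, the direction thus depended on the scale. MNDAL stood apart, with 42.98 FPKM in ApoE3 and 27.2 in ApoE4, a ratio of 0.64 and, centred, 1.07.

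MNDAL was the only member higher in ApoE3 at both time points as deposited; after centring, IFI203 was as well. Its ratio at 21 dpi was exceeded by 139 of the 11472 listed genes. The pair with the identical promoter stretch thus had ratios of opposite sign at 21 dpi as deposited, and of the same sign after centring. Added together at 7 dpi, IFI203 and MNDAL came to 189 FPKM in ApoE3 and 127 in ApoE4, and their sums at 21 dpi were 58.03 and 45.8, with ratios of 0.57 and 0.34 (centred 0.76).

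**Figure D3:**
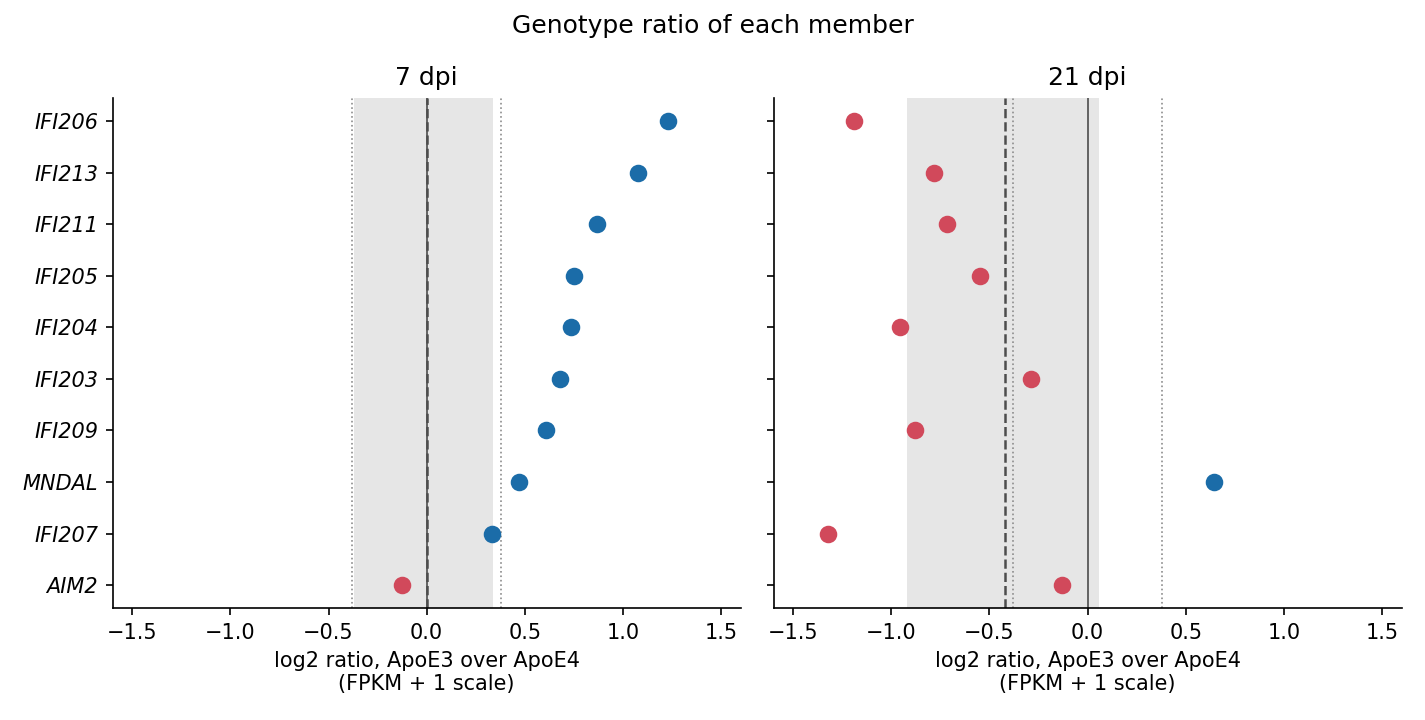
Log2 ratio of ApoE3 over ApoE4 on the FPKM plus 1 scale for each member at 7 dpi (left) and 21 dpi (right), as deposited, with blue points above 0 and red points below. The dashed line is the median of all genes averaging 1 FPKM or more, the grey band runs from the 5th to the 95th percentile of all listed genes and the dotted lines mark a fold of 1.3; at 21 dpi the band is shifted toward ApoE4, IFI207, IFI206 and IFI204 lie below it and MNDAL lies above it.

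The family sum was led by AIM2. At 7 dpi all 10 members together had 649.6 FPKM in ApoE3 and 528 in ApoE4, a ratio of 0.30 or 1.23-fold, which is short of the threshold. AIM2 made up 36.9% of that sum in ApoE3 and 49.5% in ApoE4. Without AIM2, the 9 Ifi200 members had 409.9 FPKM in ApoE3 and 267 in ApoE4, a ratio of 0.62 or 1.53-fold. The sum of the Ifi200 members was therefore past the fold at 7 dpi, and the sum that includes AIM2 was not.

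At 21 dpi the 10 members had 278 FPKM in ApoE3 and 333 in ApoE4, a ratio of -0.26 as deposited that centring turned to 0.16. AIM2 then made up 63.1% of the sum in ApoE3 and 57.7% in ApoE4. Without AIM2 the sums were 103 FPKM in ApoE3 and 141 in ApoE4, a ratio of -0.46 as deposited and -0.03 centred. Without AIM2 and MNDAL the other 8 members had 59.7 and 114 FPKM, a ratio of -0.92 and, centred, -0.50. The 9 Ifi200 members as a sum thus leaned toward ApoE4 at 21 dpi about as much as the table as a whole, with MNDAL past the fold toward ApoE3 and 4 members past it toward ApoE4 after centring.

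**Figure D4:**
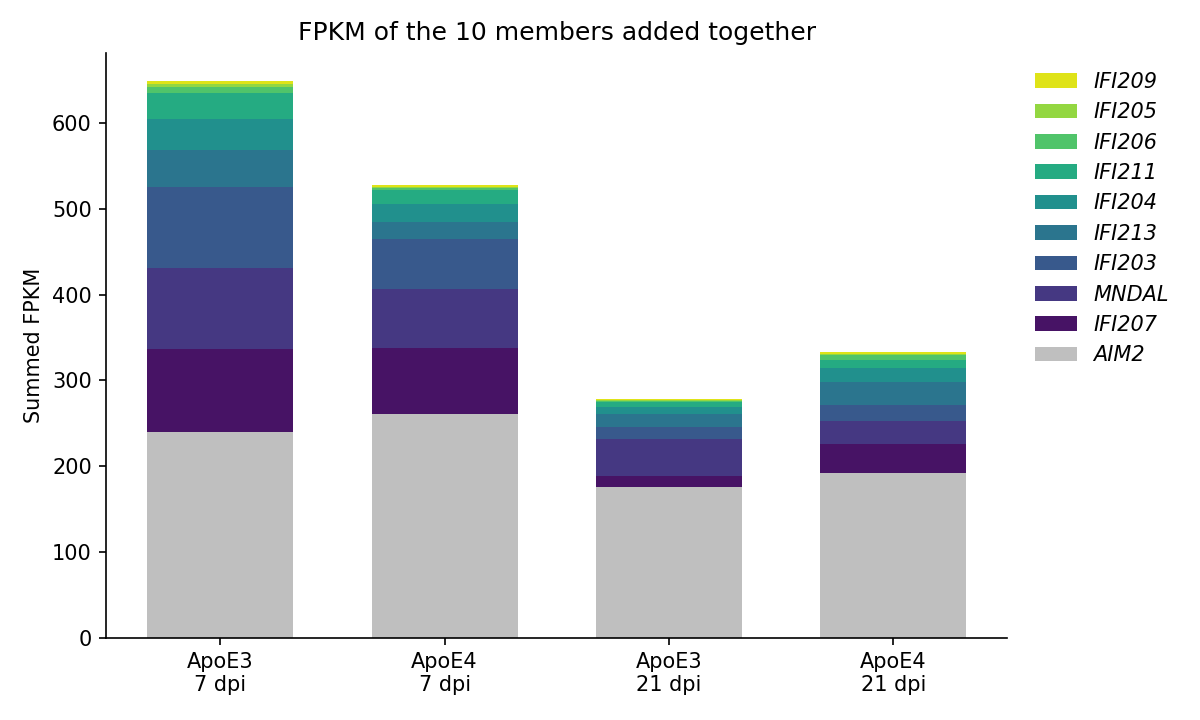
FPKM of the 10 members stacked in each group, with AIM2 in grey at the bottom; the axis starts at 0. At 7 dpi the sum is 649.6 FPKM in ApoE3 and 528 in ApoE4, and at 21 dpi it is 278 and 333, where the order of the genotypes turns after centring.

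From 7 to 21 dpi the levels can only be set side by side, because genotypes were compared within each time point and whether both time points were scaled together is not given. Without AIM2 the sum went from 409.9 to 103 FPKM in ApoE3, 3.96-fold lower, and from 267 to 141 in ApoE4, 1.88-fold lower. Genes listed at both time points had a median log2 difference (21 over 7 dpi) of 0.09 in ApoE3 and 0.53 in ApoE4. Relative to these medians the sum without AIM2 was lower at 21 dpi by log2 values of -2.08 in ApoE3 and -1.44 in ApoE4. The Ifi200 members were lower at 21 than at 7 dpi in both genotypes on this scale, taken as a sum.

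Single members went furthest in ApoE3, where IFI207 was 7.13-fold lower and IFI203 was 5.91-fold lower at 21 dpi. AIM2 was 1.36-fold lower at 21 dpi in either genotype as deposited. Relative to the median of all genes its log2 difference was -0.54 in ApoE3 and -0.97 in ApoE4. IFI206, IFI213 and IFI209 had higher FPKM at 21 than at 7 dpi in ApoE4 as deposited, but relative to the median of all genes this held for IFI206 alone, with a log2 difference of 0.38. In ApoE4, therefore, the members did not all follow the sum.

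The level of AIM2 can be set beside those of the genes around it and of the proteins it works with. At 7 dpi CADM3, whose span it overlaps, had 237 FPKM in ApoE3 and 188 in ApoE4 (ratio 0.33), and its levels at 21 dpi were 296 and 386 (ratio -0.38, centred 0.04). ACKR1 had 28.8 and 24.6 FPKM at 7 dpi and 62.9 and 80.7 at 21 dpi. At 7 dpi AIM2 and CADM3 thus had like levels in ApoE3 but not in ApoE4, and ratios of opposite sign; at 21 dpi their ratios had the same sign, as deposited and centred, and the part of CADM3 reads in the value of AIM2 was not tested.

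AIM2 also stood far above its partners in the inflammasome. At 7 dpi PYCARD, its adaptor, had 36.8 FPKM in ApoE3 and 47.6 in ApoE4, while CASP1, the protease it activates, had 3.49 and 3.69. GSDMD, the pore protein that caspase-1 cleaves, had 61.97 and 62.9 FPKM. Of the 21 names searched for inflammasome and pyroptosis, 18 were listed at 7 dpi, of which none was past the fold toward ApoE3 and 3 were past it toward ApoE4.

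Those 3 were IL1RN, the antagonist of the interleukin-1 receptor, with 5.79 FPKM in ApoE3 and 9.03 in ApoE4, NLRP3, another inflammasome sensor, with 7.80 and 10.9, and NINJ1, which acts in membrane rupture, with 48.96 and 65.95. By mean FPKM over the groups with a value, IL18BP, TXNIP, IL18 and NEK7 came first, the last 2 with values at 7 dpi only, and their ratios at 7 dpi were -0.32, -0.23, -0.28 and -0.09. The median ratio of the 18 was -0.17, beside 0.71 for the members. At 21 dpi 12 genes of the list were listed, with a median of -0.65 and, centred, -0.23. Past the fold toward ApoE4 were 9 as deposited and 3 after centring, and none toward ApoE3. Over all listed genes, 58.9% and 8.06% were past it toward ApoE4. At 7 dpi AIM2, at -0.12, had the sign of the median of these genes, and the Ifi200 members had the opposite sign. The ratio of AIM2 lay between the 5th and 95th percentiles of all listed genes, -0.37 and 0.34. Nothing is read from its sign, and the part of CADM3 reads in it was not tested. At 21 dpi after centring AIM2 was at 0.29, on the other side from the median of these genes. Of the 10 members, 7 were then on the same side as that median. Centring by construction leaves all genes on both sides in like numbers, so nothing is read from this count.

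Interferon-stimulated genes outside the locus had a median ratio of the same sign as that of the members at both time points. At 21 dpi as deposited, 93.8% of all listed genes also had that sign. The list was chosen with earlier results of these data known, so nothing is read from its counts. All 26 were listed at 7 dpi, with a median ratio of 0.58. Of these, 20 were past the fold toward ApoE3, against 3.78% of all listed genes, and none toward ApoE4, against 4.76%. OASL1 had 19.7 FPKM in ApoE3 and 6.64 in ApoE4, RSAD2 had 10.3 and 3.50, IFIT1 had 17.9 and 7.02, and IFIT3, the most abundant, had 373 and 160.4. LGALS3BP, OASL2 and XAF1, the next by mean FPKM over both time points, had ratios of 0.09, 0.87 and 0.48 at 7 dpi. At 21 dpi 24 were listed, with a median of -0.73 and, centred, -0.30. Past the fold toward ApoE4 were 22 as deposited and 7 after centring, against 58.9% and 8.06% of all listed genes.

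Genes of interferon signalling as a list did not share the lean toward ApoE3 at 7 dpi. Of 20 names, 14 were listed at 7 dpi; USP18 (8.14 FPKM in ApoE3 and 4.40 in ApoE4) and STAT2 (17.3 and 12.1) were past the fold toward ApoE3, SOCS3 (36.8 and 48.2) was past it toward ApoE4, and the median ratio was -0.13. JAK1, TYK2, IFNAR2 and IRF8 had the highest mean FPKM over the groups with a value, for TYK2 those at 7 dpi only, with ratios of 0.06, -0.13, -0.36 and -0.21 at 7 dpi. The interferon genes searched, IFNB1, IFNE, IFNG, IFNA1, IFNA2 and IFNA4, had no value at either time point in the values used here. At 21 dpi 10 were listed, with a median of -0.47 and, centred, -0.05. Past the fold toward ApoE4 were 7 as deposited and 1 after centring, and none toward ApoE3. Over all listed genes, 58.9% and 8.06% were past it toward ApoE4.

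Other genes of DNA sensing and DNA clearance were mixed at 7 dpi. Of 20 names, 18 were listed at 7 dpi, with 3 past the fold toward ApoE3, 1 toward ApoE4 and a median ratio of -0.07. The 3 were ZBP1, a sensor of nucleic acids in Z form, with 34.6 FPKM in ApoE3 and 13.2 in ApoE4, IRF7, with 159 and 81.9, and the nuclease TREX1, with 45.98 and 33.9; all are also known to be induced by interferon. The 1 was MRE11A, with 18.7 and 26.2 FPKM. LRRFIP1, HMGB1, IRF3 and RNASEH2A had the highest mean FPKM over both time points, with ratios of -0.09, -0.06, -0.17 and 0.19 at 7 dpi, and TMEM173, which encodes STING, stood at 78.4 FPKM in ApoE3 against 88.6 in ApoE4. At 21 dpi 14 were listed, with a median of -0.47 and, centred, -0.04. Past the fold toward ApoE4 were 9 as deposited and 2 after centring, and none toward ApoE3. Over all listed genes, 58.9% and 8.06% were past it toward ApoE4.

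The reference genes give the lean of the table. Of 11 names, 8 were listed at both time points, and none was past the fold at 7 dpi, where the median was 0.04 and the ratios of ACTB, YWHAZ, PPIA and RPLP0, the highest in mean FPKM over both time points, were -0.07, 0.08, 0.03 and -0.10. At 21 dpi 6 of the 8 were past the fold toward ApoE4 as deposited and none after centring, with a median of -0.44 and, centred, -0.01.

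**Figure D5:**
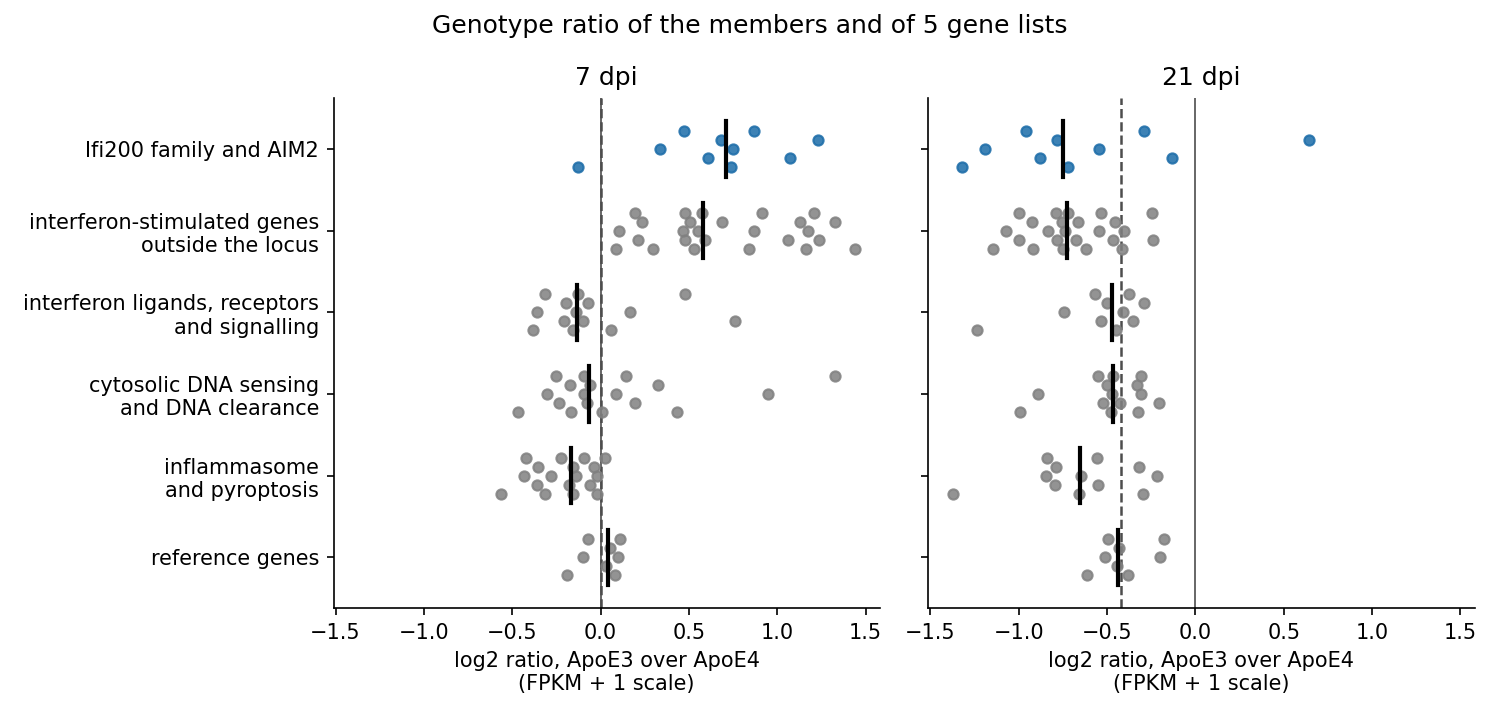
Log2 ratios of ApoE3 over ApoE4 on the FPKM plus 1 scale for the 10 members (blue) and the listed genes of 5 lists (grey) at 7 dpi (left) and 21 dpi (right), as deposited; each point is 1 gene, black bars are medians and the dashed line is the median of all genes averaging 1 FPKM or more. The medians of the members and of the interferon-stimulated genes outside the locus are 0.71 and 0.58 at 7 dpi, and -0.75 and -0.73 at 21 dpi.

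Markers of the cells that could hold these transcripts did not all go with the Ifi200 members at 7 dpi. Of 12 monocyte and macrophage markers 11 were listed, with a summed level of 6414 FPKM in ApoE3 and 8399 in ApoE4; LYZ2 was the most abundant, with 4522 and 6076 FPKM, and CD163 was not listed. Of these 11, 4 (ADGRE1, CSF1R, MRC1 and FCGR1) were higher in ApoE3 and 7 in ApoE4, 3 of them (LYZ2, CD14 and MSR1) past the fold, and their median ratio was -0.07. Among microglia markers TREM2 had 459.8 and 561 FPKM, TMEM119 had 72.8 and 83.6 and OLFML3 had 56.1 and 59.8, while SIGLECH, with 112 and 104, GPR34, with 52.1 and 50.1, and SALL1, with 47.7 and 42.6, were higher in ApoE3. None of these 6 was past the fold, and P2RY12, CX3CR1 and P2RY13 were not listed. No macrophage marker was past the fold toward ApoE3 either, where IFI206, IFI213 and 6 more members were.

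Neutrophil and lymphocyte markers were few. Of 10 neutrophil markers 3 were listed at 7 dpi, with sums of 20.2 FPKM in ApoE3 and 11.98 in ApoE4, led by S100A9 with 14.1 and 8.19, and LY6G, MPO and ELANE were not listed. Of 9 markers of T and NK cells only LCK was listed, with 11.5 and 4.79 FPKM, and CD3D, CD3E and CD3G were not. Of 5 B cell markers only CD79B was listed, with 2.46 and 3.28 FPKM, and MS4A1 was not. S100A9 and LCK were thus higher in ApoE3, as the Ifi200 members were. Dendritic cell markers (4 of 7 listed, XCR1 and CLEC9A not) had sums of 63.6 and 75.1 FPKM and a median ratio of -0.01; ITGAX had 20.3 and 33.7, while FLT3, with 17.3 and 16.7, and ZBTB46, with 24.6 and 23.3, were higher in ApoE3.

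The resident cells of the cord were present in both groups at 7 dpi. Neuron markers (8 of 8 listed) summed to 5885 FPKM in ApoE3 and 4650 in ApoE4, led by SNAP25 with 3366 and 2545. Astrocyte markers (7 of 7) summed to 17481 and 17060 FPKM, led by GFAP with 12395 and 12386, and oligodendrocyte markers (4 of 7, with MAG and CNP among those not listed) to 126706 and 133868 FPKM, nearly all of it MBP with 120571 and 127575; their median ratio was 0.095, since MOG had 247.8 and 209.9 FPKM and OPALIN had 18.3 and 14.8. Endothelial markers (6 of 6) summed to 254.2 and 254.1 FPKM, led by FLT1 with 92.4 and 81.8, and fibroblast markers (6 of 6) to 664 and 851 FPKM, led by COL1A1 with 212 and 269.96. The part of these cell types in the ratios of the members was not tested.

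At 21 dpi several marker lists had a median on the ApoE4 side also after centring. Monocyte and macrophage markers (7 of 12 listed, CD68, CCR2, LY6C2, MRC1 and CD163 not) summed to 339 FPKM in ApoE3 and 643 in ApoE4, led by LYZ2 with 212 and 426, and their median centred ratio was -0.345. Microglia markers (5 of 10, with P2RY12, CX3CR1, GPR34 and TREM2 among those not listed) summed to 229 and 400.4 FPKM, led by SIGLECH with 123 and 237, with a median centred ratio of -0.24. Neutrophil markers (4 of 10, again without LY6G, MPO and ELANE) summed to 13.99 and 34.5 FPKM, led by S100A9 with 10.3 and 27.4, with a median centred ratio of -0.39. Astrocyte markers (7 of 7) summed to 10993 and 20093 FPKM, led by GFAP with 8201 and 15313, with a median centred ratio of -0.345. T and NK cell markers (3 of 9) summed to 12.7 and 11.97 FPKM with a median centred ratio of -0.23; LCK (11.05 and 8.06 FPKM) was higher in ApoE3, and CD3G (0.468 and 1.302) and NKG7 (1.23 and 2.62) were lower. CD79B, the B cell marker listed, had 1.19 and 3.03 FPKM, a centred ratio of -0.45.

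Markers of the remaining cells at 21 dpi had other medians. Dendritic cell markers (3 of 7 listed) summed to 59.3 FPKM in ApoE3 and 84.1 in ApoE4, neuron markers (7 of 8) to 8070.0 and 11486, endothelial markers (5 of 6) to 229.8 and 285, and fibroblast markers (6 of 6) to 118.6 and 79.1. FLT3, SNAP25, FLT1 and PDGFRA led these lists, whose median centred ratios were -0.04, 0.03, 0.08 and 0.74, and MBP, an oligodendrocyte marker, had 201348 and 278678 FPKM, a centred ratio of -0.05. The fibroblast sum was higher in ApoE3 through DCN, with 61.9 and 9.37 FPKM, a difference larger than that of the sum; PDGFRA had 42.02 and 58.8, and the other 5 of the 6 were higher in ApoE3.

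Transcripts of tissues outside the cord differed at 21 dpi. Of 6 skeletal muscle markers 5 were listed, with a sum of 26.6 FPKM in ApoE3 and 669 in ApoE4, led by TNNT3 with 22.5 and 515; at 7 dpi 4 were listed, with sums of 54.9 and 36.7. Of 6 liver markers 5 were listed at 21 dpi, with sums of 7.46 and 84.4 FPKM, led by APOA2 with 5.38 and 59.2, and none at 7 dpi. CKM and FGB were not listed. The part of these markers, and of the others above, in the ratios of the members at 21 dpi was not tested.

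The genes whose pattern over the 4 groups was most like the sum of all 10 members were GJB2, HELZ2, NPNT, MR1, TRIM56, GBGT1, DIAPH3 and SLC7A11. Likeness was the Euclidean distance between log2(FPKM + 1) values, each gene centred on its own mean over the 4 groups, among 10854 genes listed at both time points that averaged 1 FPKM or more, and these 8 had distances from 0.11 to 0.17. At 7 dpi HELZ2 had 18.1 FPKM in ApoE3 and 13.4 in ApoE4, with 6.56 and 8.76 at 21 dpi. GJB2 had 11.3 and 8.20 FPKM at 7 dpi and 3.80 and 5.09 at 21 dpi. For the sum without AIM2, a comparison added after the values were seen, NCAPG2, PRSS35, H2-T24 and CPXM1 came first, with SLFN8, SLFN9 and SLFN5 among the nearest 8. At 7 dpi SLFN5 had 114.8 FPKM in ApoE3 and 77.7 in ApoE4, with 33.7 and 53.7 at 21 dpi.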

How the data were processed

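FPKM plus 1 was deposited by the authors, with 1 value per gene and group, from 100-nt single-end reads processed with STAR 2.5.4b, Bowtie2, SAMtools 0.1.7 and Cuffdiff 1.3.0 per the labels; by the methods, libraries from a kit that does not mark strand were down-sampled to equal read numbers. The methods also report 1 replicate with a lower share of aligned reads than the others, and do not name its group. The genome build is not given in the sources used here, and read numbers per gene are unknown. The table also holds the authors' p-values, q-values and fold changes, and a further table their log2 fold changes; none was used.

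Members and lists were chosen with earlier results of these data known. FPKM was the deposited value minus 1, and the 2 symbols on 2 rows at each time point were summed. Ratios used a pseudocount of 1 FPKM, and centring subtracted the median of genes averaging 1 FPKM or more. No test was run. Genes named from lists were the 4 highest in mean FPKM over the groups with a value and up to 4 past the fold at 7 dpi with the largest ratios; PYCARD, CASP1, GSDMD, TMEM173 and the 6 microglia markers given at 7 dpi, DCN and MBP at 21 dpi were named after their values were seen. Some marker genes, and sums that need them, are not reported here. Alternatives were pseudocounts of 0.1 and 0.01, folds of 1.5 and 2, centring, a minimum mean FPKM, sums without AIM2 and exchanged genotypes. Sums without MNDAL, centred sums without AIM2 and scaling to equal summed FPKM were added after the data were seen. Windows of transcripts came from GENCODE vM21, and promoters and gene order from RefSeq GRCm38.p6. Procedures were tested on simulated data. Python 3.11.15, numpy 2.4.6, pandas 2.3.3 and matplotlib 3.10.9 were used.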

Additional observations from a re-analysis of the deposited data

Results flagged for a closer look

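The ratio between genotypes went opposite ways at 7 and 21 dpi, past the fold of 1.3 at both as deposited, for 6 of the 10 members, all higher in ApoE3 first, against 2.45% of the 10879 genes listed at both time points. With 1 value per group, the difference between time points was not tested. These ratios also chose the members, so nothing is read from the counts. The log2 ratio at 7 dpi minus that at 21 dpi was 2.42 for IFI206, 1.86 for IFI213, 1.69 for IFI204, 1.59 for IFI211, 1.49 for IFI209 and 1.297 for IFI205; over all these genes the median of this difference was 0.43. After centring, 3 of the 6 (IFI204, IFI206 and IFI209) were still past the fold at both time points in opposite directions, against 0.846% of all these genes. For the sum without AIM2 the difference was 1.07, from 0.62 at 7 dpi and -0.46 at 21 dpi, and centred the value at 21 dpi was -0.03.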

How the results depend on the processing

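Under pseudocounts of 0.1 and 0.01, all 10 members kept their direction and their side of the fold at both time points (40 of 40 comparisons), as they did at 7 dpi under centring, but ratios of members with low levels grew: at 21 dpi IFI205 went from -0.55 to -0.92 and -0.99, and IFI209 from -0.88 to -1.40 and -1.49. At 21 dpi centring turned IFI203 to 0.13 and AIM2 to 0.29, and IFI205, IFI211 and IFI213 no longer passed the fold. The family sum was 0.30 at 7 dpi and -0.26 at 21 dpi. Without AIM2, the most abundant member, it was 0.62 and -0.46, past the fold at both, and without AIM2 and MNDAL 0.66 and -0.92. Without AIM2 and centred it was 0.62 at 7 dpi and, no longer past the fold, -0.03 at 21 dpi. At 21 dpi centring turned the sum of all 10 to 0.16, and scaling to equal summed FPKM turned it to 0.18. With the genotypes exchanged the sums were -0.30 and 0.26. Of all listed genes at 21 dpi, 6753 would then be past the fold of 1.3 toward ApoE3 and 231 toward ApoE4. The paper describes more differing genes higher in ApoE4 than in ApoE3 at that time point. It also set a limit on the false discovery rate, which these counts do not have.

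A fold of 2 left 2 members higher in ApoE3 at 7 dpi (8 at a fold of 1.3), 2 higher in ApoE4 at 21 dpi (7 at 1.3) and 0 higher in ApoE3 at 21 dpi (1 at 1.3), against 0.34%, 3.77% and 0.741% of all listed genes past a fold of 2; at 1.3 the share toward ApoE4 at 21 dpi was 58.9%. After centring at 21 dpi, IFI207 and IFI206 fell short of a fold of 2 toward ApoE4 (-0.90 and -0.77). MNDAL was then past it toward ApoE3 (1.07). At a fold of 1.3, centring and scaling each gave 4 members higher in ApoE4 at 21 dpi. Under the other alternatives the counts of members past the fold in each direction stayed within 1.5 times. Centring took the members past the fold in opposite directions at the 2 time points from 6 to 3. At 21 dpi it took the interferon-stimulated genes past the fold toward ApoE4 from 22 to 7, and the inflammasome genes from 9 to 3. Over all listed genes that share went from 58.9% to 8.06%. Counts of the lists were made as deposited and centred only. Why the counts changed follows from the higher threshold and from the lean of the table; no further cause was tested. No paired analysis was possible because each group has 1 value. The number of reads behind a value is unknown, so no counting error or limit of detection is given.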
